A study of Mus musculus with 10 samples.

Results

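The genes described here are those of fibroblast growth factor (FGF) signalling: the ligands, their receptors, the proteins that bind ligand or receptor, the adaptors below the receptor, the feedback inhibitors and the ETS transcription factors that the pathway switches on. They were chosen by symbol, and 47 of the 22180 genes with a probe set of their own on the array met the rule. Frs2, the main docking adaptor of FGF receptors, also meets it by name but had no probe set annotated to it alone and was not analysed here. The study asked which RNAs of the embryonic cortex are bound by 4E-T, the product of Eif4enif1, which binds the cap-binding factor eIF4E, is found in P-bodies and holds back translation. All RNA was cortical, taken from CD1 embryos between embryonic days 12 and 13, and the arrays were of the Affymetrix Mouse Gene 2.0 ST type. RNA brought down by a 4E-T antibody was on 3 arrays (4E-T 1, 2 and 3), RNA from control IgG pulldowns on 3 (IgG 2, 3 and 4) and total input RNA on 4 (input 1 to 4). No embryo was labelled as mutant or treated. The design text calls the samples biological replicates, but the labels name no litters, so p-values measure the spread between these samples, which may in part be technical. In bulk tissue such as this, fewer cells of a type and less RNA per cell cannot be told apart.

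FGF ligands bind receptor tyrosine kinases together with heparan sulfate, and the activated receptor recruits Frs2, Grb2 and Sos to switch on Ras and the ERK kinases. ERK activity induces the ETS factors Etv1, Etv4 and Etv5 and also the Sprouty and Spred proteins and Il17rd (Sef), which dampen the same cascade. In the embryonic forebrain, FGFs from the rostral midline pattern the cortex into areas, and receptors on radial precursors keep these cells dividing.

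All values are log2 RMA values, and differences are log2 differences with their standard error from a limma fit over all 10 arrays (n = 3, 3 and 4). Input 1 and 4E-T 1 lay on a lower scale than the other arrays: the median over all probe sets was 3.54 and 3.52 on them and 4.33 to 4.54 on the other 8. This pair also gave identical values for 7.52% of probe sets, while no other pair of arrays exceeded 0.138%. The fit therefore held a term for this pair (the lower set) beside the group, so that 4E-T 1 counted through its difference from input 1. The term takes the shift of a gene to be equal on both arrays of the pair, which was not tested. A gene was called when its Benjamini-Hochberg adjusted p over all genes was under 0.05. Because the set was recognised from the values and not from the labels, counts from a fit with group alone are given beside the main ones. Markers of the labelled tissue were present. All 10 measured cortical precursor markers and all 6 markers of newborn cortical neurons exceeded the 95th percentile of 1394 chemoreceptor genes in input, a family used as a dim reference. By the same measure 3 of 7 meningeal and mesenchymal, 2 of 5 microglial, 2 of 6 ventral forebrain and 1 of 3 erythroid markers did not exceed it. All 5 endothelial markers did, so most markers of other cell types were above the reference too. On input 2, 3 and 4 the mean log2 value was 6.27 to 7.22 over the erythroid list and 8.40 to 8.56 over that of cortical precursors. Of the 47 FGF genes, 32 exceeded this reference in at least 1 group and 15 in none. Among those 15 were 11 of the 15 paracrine ligands.

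In the comparison of 4E-T with IgG precipitates, which asks what the 4E-T antibody brought down beyond the control antibody, 7 of 47 FGF genes were called higher and 1 lower. The higher ones were the membrane proteins Flrt3 and Flrt2, the feedback inhibitors Spry4, Spry2 and Spry1, the receptor Fgfr2 and the ligand Fgf15. For the 5 of them above the dim reference in every group, the difference was 1.65-fold to 3.82-fold. The lower one was Fgf13. This is 14.9% of the genes higher and 2.13% lower, where limma called 7.57% of all genes higher and 2.92% lower. The median difference was 0.23 over the FGF genes and 0.03 over all genes. With group alone Flrt3 was the only FGF gene called, where 1.35% of all genes were called (299 against 2326), and the median difference of all genes was -0.19. Of all calls 72.1% were on the higher side, against 52.5% with group alone and 53.2% after quantile normalization of the 10 arrays together. In the 8 arrays outside the lower set 5 FGF genes were called, where 8.62% of all genes were.

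**Figure D1:**
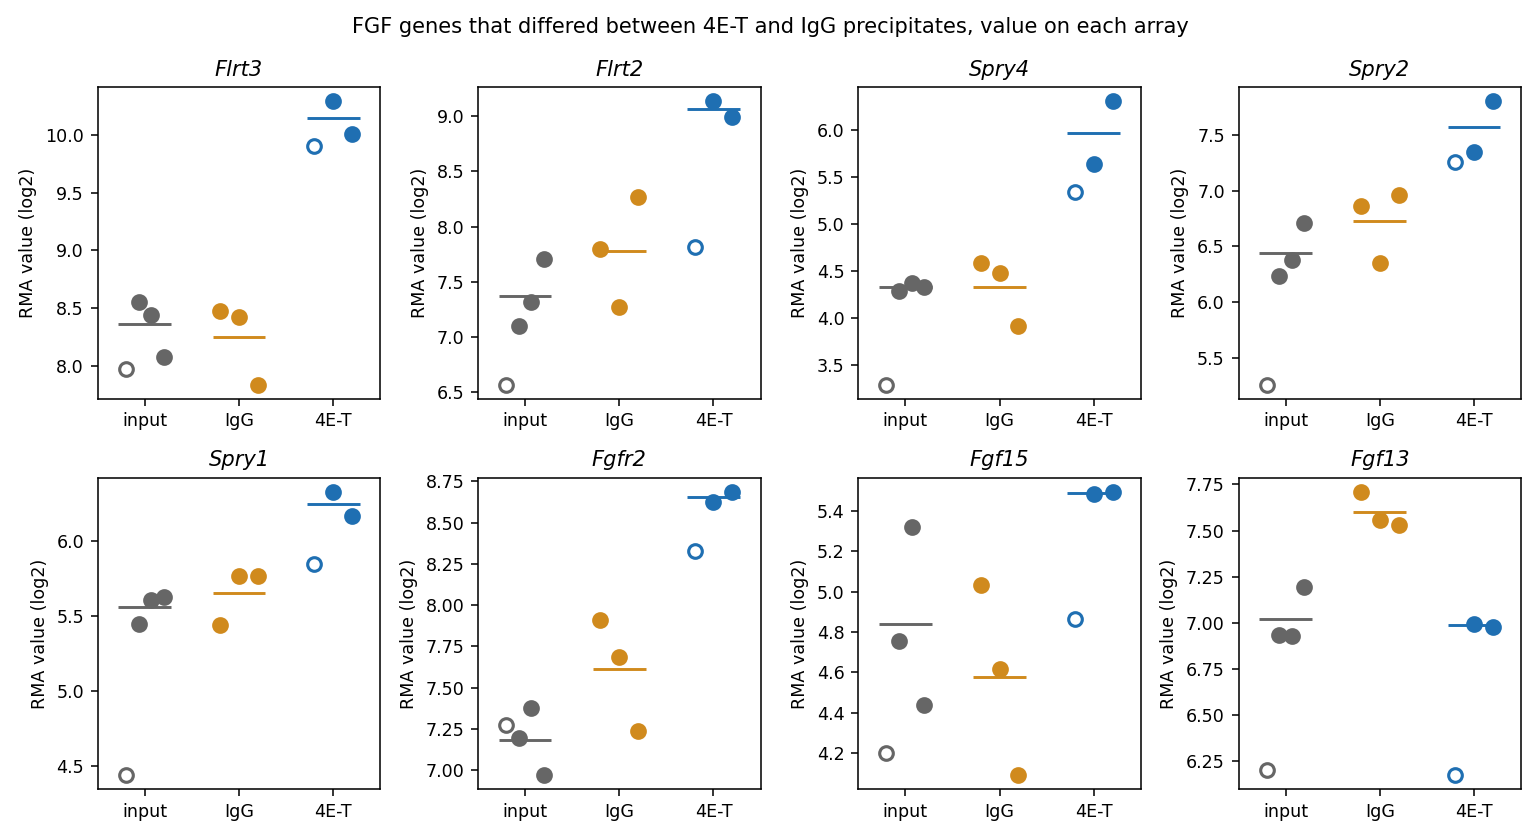
Log2 RMA value of each of the 8 FGF genes called between 4E-T and IgG precipitates, with 1 point per array. Open circles are input 1 and 4E-T 1 (the lower set), filled circles are the other arrays, and bars are means of the filled circles. Filled 4E-T points lie above all IgG points for 7 genes and below them for Fgf13, and the open 4E-T circle lies above the open input circle for those 7.

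The FLRT genes encode transmembrane proteins with leucine-rich repeats that bind FGF receptors and also guide cells and axons through Unc5 and latrophilin. Flrt3 read 10.29 and 10.01 on 4E-T 2 and 3, 8.48, 8.42 and 7.83 on IgG 2, 3 and 4 and 8.55, 8.44 and 8.07 on input 2, 3 and 4. On the lower scale it read 9.91 on 4E-T 1 and 7.97 on input 1. All 3 4E-T arrays thus stood above every IgG and input array, whatever the scale, while IgG and input overlapped. The difference from IgG was 1.93 ± 0.21 (3.82-fold, limma adjusted p = 0.000285, and 0.00398 with group alone), and the call held in all 10 fits that left out 1 array. Flrt2 read 9.13 and 8.99 on 4E-T 2 and 3, 7.80, 7.27 and 8.27 on the IgG arrays and 7.10, 7.31 and 7.71 on input 2, 3 and 4, with 7.82 on 4E-T 1 and 6.57 on input 1. Its IgG values spread more widely than those of Flrt3, and 4E-T 2 and 3 lay above all of them. The difference was 1.21 ± 0.25 (2.31-fold, limma adjusted p = 0.0116). It was not called with group alone (0.375), without 4E-T 2 (0.0775) or 4E-T 3 (0.0624), or after quantile normalization of the 10 arrays (0.105). The remaining paralog, Flrt1, was at 0.31 ± 0.15 and was not called (limma adjusted p = 0.240). Of the secreted FGF carriers, Fgfbp3 was at 0.27 ± 0.17 and Fgfbp1 at -0.09 ± 0.22.

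The promoters of Flrt2, Flrt3, Spry1 and Spry2 are shown, as examples of FLRT and Sprouty genes called together, because ETS factors of the pathway act at promoters. That of Spry4 is not shown. Each line gives the 250 bases before an annotated transcript start in RefSeq (GRCm38.p6), read 5′ to 3′. Any match to CCGGAA or GGAAGT or their reverse complements is in capitals. These 2 motifs are ETS-type cores and can overlap each other.
Flrt2: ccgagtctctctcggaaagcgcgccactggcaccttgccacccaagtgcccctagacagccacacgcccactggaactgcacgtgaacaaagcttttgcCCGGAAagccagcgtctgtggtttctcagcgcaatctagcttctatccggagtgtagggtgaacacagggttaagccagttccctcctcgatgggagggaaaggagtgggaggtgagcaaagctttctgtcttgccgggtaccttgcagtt
Flrt3: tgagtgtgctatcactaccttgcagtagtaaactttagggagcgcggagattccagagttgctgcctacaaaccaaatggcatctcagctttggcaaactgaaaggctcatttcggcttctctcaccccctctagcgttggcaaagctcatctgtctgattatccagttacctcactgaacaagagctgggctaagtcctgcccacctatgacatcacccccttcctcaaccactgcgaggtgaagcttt
Spry1: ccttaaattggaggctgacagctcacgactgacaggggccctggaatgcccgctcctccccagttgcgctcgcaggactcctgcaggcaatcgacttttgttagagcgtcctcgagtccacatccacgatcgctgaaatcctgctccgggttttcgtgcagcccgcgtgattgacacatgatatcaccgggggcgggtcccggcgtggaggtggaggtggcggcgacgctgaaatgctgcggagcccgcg
Spry2: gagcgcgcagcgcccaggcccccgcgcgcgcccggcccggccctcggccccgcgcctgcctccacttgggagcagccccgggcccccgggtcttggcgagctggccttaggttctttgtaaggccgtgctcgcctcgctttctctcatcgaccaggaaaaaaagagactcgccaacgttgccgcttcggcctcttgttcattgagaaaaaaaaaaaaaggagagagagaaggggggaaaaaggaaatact
They lie at chr12:95691976-95692225 on the plus strand, chr2:140671477-140671726 on the minus strand, chr3:37639697-37639946 on the plus strand and chr14:105896820-105897069 on the minus strand. Only the Flrt2 sequence of these 4 held a match. The annotated span of Flrt2 begins at base 95692006, so this match and most of the stretch shown lie within the gene. For 36 of the FGF genes, Spry4 not among them, 46 such entries were searched, and 11 of the 46 (23.9%) held a match, against 27.1% of all 32851 entries. A match is a description of the letters and not a site.

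The feedback inhibitors gave the other large differences. Sprouty proteins bind Grb2 and other parts of the cascade and limit ERK activation after receptor signalling. Spry4 read 5.64 and 6.30 on 4E-T 2 and 3, 4.58, 4.48 and 3.92 on IgG 2, 3 and 4 and 4.29, 4.37 and 4.33 on input 2, 3 and 4. On the lower scale it read 5.34 on 4E-T 1 and 3.30 on input 1. IgG and input did not stand apart, and every 4E-T array lay above both. The difference from IgG was 1.71 ± 0.22 (limma adjusted p = 0.000835). Spry4 exceeded the dim reference in the 4E-T group but not in IgG or input, so no fold is given and its differences from both are taken against a level not told apart from background. The call held in all 10 fits without 1 array but not with group alone (adjusted p = 0.0644).

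Spry2, the paralog most studied in branching organs and brain, read 7.35 and 7.80 on 4E-T 2 and 3, 6.86, 6.35 and 6.96 on the IgG arrays and 6.24, 6.38 and 6.71 on input 2, 3 and 4. On the lower scale 4E-T 1 read 7.26 and input 1 5.26, a wider gap than on the other arrays. The difference from IgG was 1.00 ± 0.25 (2.00-fold, limma adjusted p = 0.0237). Spry1 read 6.33 and 6.17 on 4E-T 2 and 3, 5.44, 5.77 and 5.77 on IgG and 5.45, 5.61 and 5.63 on input 2, 3 and 4, with 5.85 on 4E-T 1 and 4.44 on input 1. Here too IgG lay near input and 4E-T above both, by 0.72 ± 0.18 over IgG (1.65-fold, limma adjusted p = 0.0287). Both calls were lost with group alone (0.391 for Spry2 and 0.574 for Spry1), in the 8 arrays outside the lower set, which is also the fit without input 1 or 4E-T 1 (0.0513 and 0.0509), and after quantile normalization (0.101 and 0.116). Spry2 was also lost without 4E-T 3 (0.115) or IgG 3 (0.0717), and Spry1 without 4E-T 2 (0.100) or IgG 2 (0.0736).

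The other 5 feedback inhibitors were not called against IgG. Il17rd, a receptor-like protein that restrains FGF signalling at the membrane, was at 0.51 ± 0.19 (limma adjusted p = 0.111) and was called in 1 of the 10 fits without 1 array. Spry3, Spred1 and Spred3 lay at 0.23 ± 0.18, 0.23 ± 0.16 and 0.26 ± 0.20, and Spred2 at -0.01 ± 0.14. The Spred proteins bring the Ras-inactivating protein neurofibromin to the membrane.

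Among the receptors Fgfr2 was called. It read 8.62 and 8.69 on 4E-T 2 and 3, 7.91, 7.69 and 7.24 on IgG, 7.19, 7.38 and 6.97 on input 2, 3 and 4, 8.33 on 4E-T 1 and 7.27 on input 1. All 3 4E-T arrays exceeded all other arrays, also without regard to scale. The difference from IgG was 0.97 ± 0.20 (1.96-fold, limma adjusted p = 0.0102), with the call lost without 4E-T 2 (0.0619), without 4E-T 3 (0.0704) and with group alone (0.0813). Fgfr3, which like Fgfr2 marks cortical precursors, read 7.53 and 7.73 on 4E-T 2 and 3, 7.34, 7.28 and 6.83 on IgG and 7.08, 6.92 and 6.54 on input 2, 3 and 4, with 6.51 on 4E-T 1 and 5.70 on input 1. Its 4E-T values outside the lower set lay above IgG, but the difference of 0.49 ± 0.19 was not called (limma adjusted p = 0.136). Fgfr1, the receptor with the broadest role in the early telencephalon, read 7.79 and 7.74 on 4E-T 2 and 3, 7.66, 7.80 and 7.42 on IgG, 7.30, 7.65 and 7.23 on input 2, 3 and 4, 6.93 on 4E-T 1 and 6.88 on input 1. Its 4E-T and IgG values overlapped, and the difference between them of 0.08 ± 0.17 had no stable sign across fits. Fgfrl1, a receptor without a kinase domain, was at 0.40 ± 0.15 (limma adjusted p = 0.118) and Fgfr4 at 0.08 ± 0.16.

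Of the 22 FGF family genes themselves, 2 were called. Fgf15, the mouse counterpart of human FGF19 and an embryonic brain ligand, read 5.48 and 5.49 on 4E-T 2 and 3, 5.03, 4.62 and 4.09 on IgG, 4.75, 5.32 and 4.44 on input 2, 3 and 4, 4.86 on 4E-T 1 and 4.20 on input 1. The 4E-T values outside the lower set lay above IgG and input, but input 3 came close to them. The difference from IgG was 0.91 ± 0.26 (limma adjusted p = 0.0478), taken against an IgG level not above the dim reference, so no fold is given. The call was lost with group alone (0.412), in the 8 arrays (0.0929) and without input 2, 4E-T 2, 4E-T 3, IgG 3 or IgG 4 (0.0680 to 0.164). It was also lost with each array centred on its median (0.0563 with group alone, 0.0749 with the set term) and after quantile normalization (0.0581). A further Fgf15 probe set, dimmer than the one used, differed by 0.13 ± 0.14, and the mean of the pair was not called (0.112).

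Fgf13 is one of the intracellular FGF homologous factors, which are not secreted and bind sodium channels and microtubules in neurons. It read 6.99 and 6.98 on 4E-T 2 and 3, 7.71, 7.56 and 7.53 on IgG and 6.94, 6.93 and 7.19 on input 2, 3 and 4, with 6.18 on 4E-T 1 and 6.20 on input 1. Here 4E-T was level with input and IgG was above both. The difference of 4E-T from IgG was -0.61 ± 0.14 (limma adjusted p = 0.0175), lost with group alone (0.200) and without 4E-T 2 (0.0843) or 4E-T 3 (0.0884). Fgf14, Fgf11 and Fgf12, the other factors of this kind, lay at -0.11 ± 0.23, 0.20 ± 0.39 and 0.37 ± 0.27.

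The 15 paracrine ligands gave 0 calls by limma, and 1 of them, Fgf7, had an unadjusted p under 0.05, at 0.43 ± 0.19. Their differences from IgG ranged from -0.19 ± 0.20 for Fgf6 to 0.46 ± 0.21 for Fgf18, which acts in cortical patterning and was called with the replicate block. Fgf2, a mitogen of cortical precursors, read 4.46 and 4.12 on 4E-T 2 and 3, 3.97, 4.49 and 4.22 on IgG and 4.42, 4.10 and 4.06 on input 2, 3 and 4, with 3.75 on 4E-T 1 and 3.51 on input 1. Its groups overlapped, none exceeded the dim reference, its difference was 0.09 ± 0.18, and its sign changed between fits. The endocrine ligands Fgf21 and Fgf23 lay at 0.05 ± 0.21 and -0.05 ± 0.18, both on probe sets within the range of the dim reference.

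None of the adaptors and ETS factors was called against IgG. Grb2, the adaptor that carries Sos to the receptor, came nearest at 0.54 ± 0.16 (limma adjusted p = 0.0562) and was called with the replicate block, with a trended robust prior, with dim genes left out and in 1 of the 10 fits without 1 array. Frs3, the paralog of Frs2, was lowest of the adaptors at -0.26 ± 0.18. Etv5, a standard readout of FGF activity, read 9.70 and 10.04 on 4E-T 2 and 3, 10.33, 10.51 and 9.95 on IgG, 9.08, 9.01 and 8.86 on input 2, 3 and 4, 8.80 on 4E-T 1 and 9.12 on input 1. Its IgG and 4E-T values overlapped, and 4E-T 1 lay below input 1 while 4E-T 2 and 3 lay above input 2, 3 and 4. The difference of 4E-T from IgG was -0.61 ± 0.25 (limma adjusted p = 0.167). A dimmer Etv5 probe set had the opposite sign, at 0.44 ± 0.33, and was not called either. Etv1 and Etv4 lay at 0.23 ± 0.30 and 0.20 ± 0.24.

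**Figure D2:**
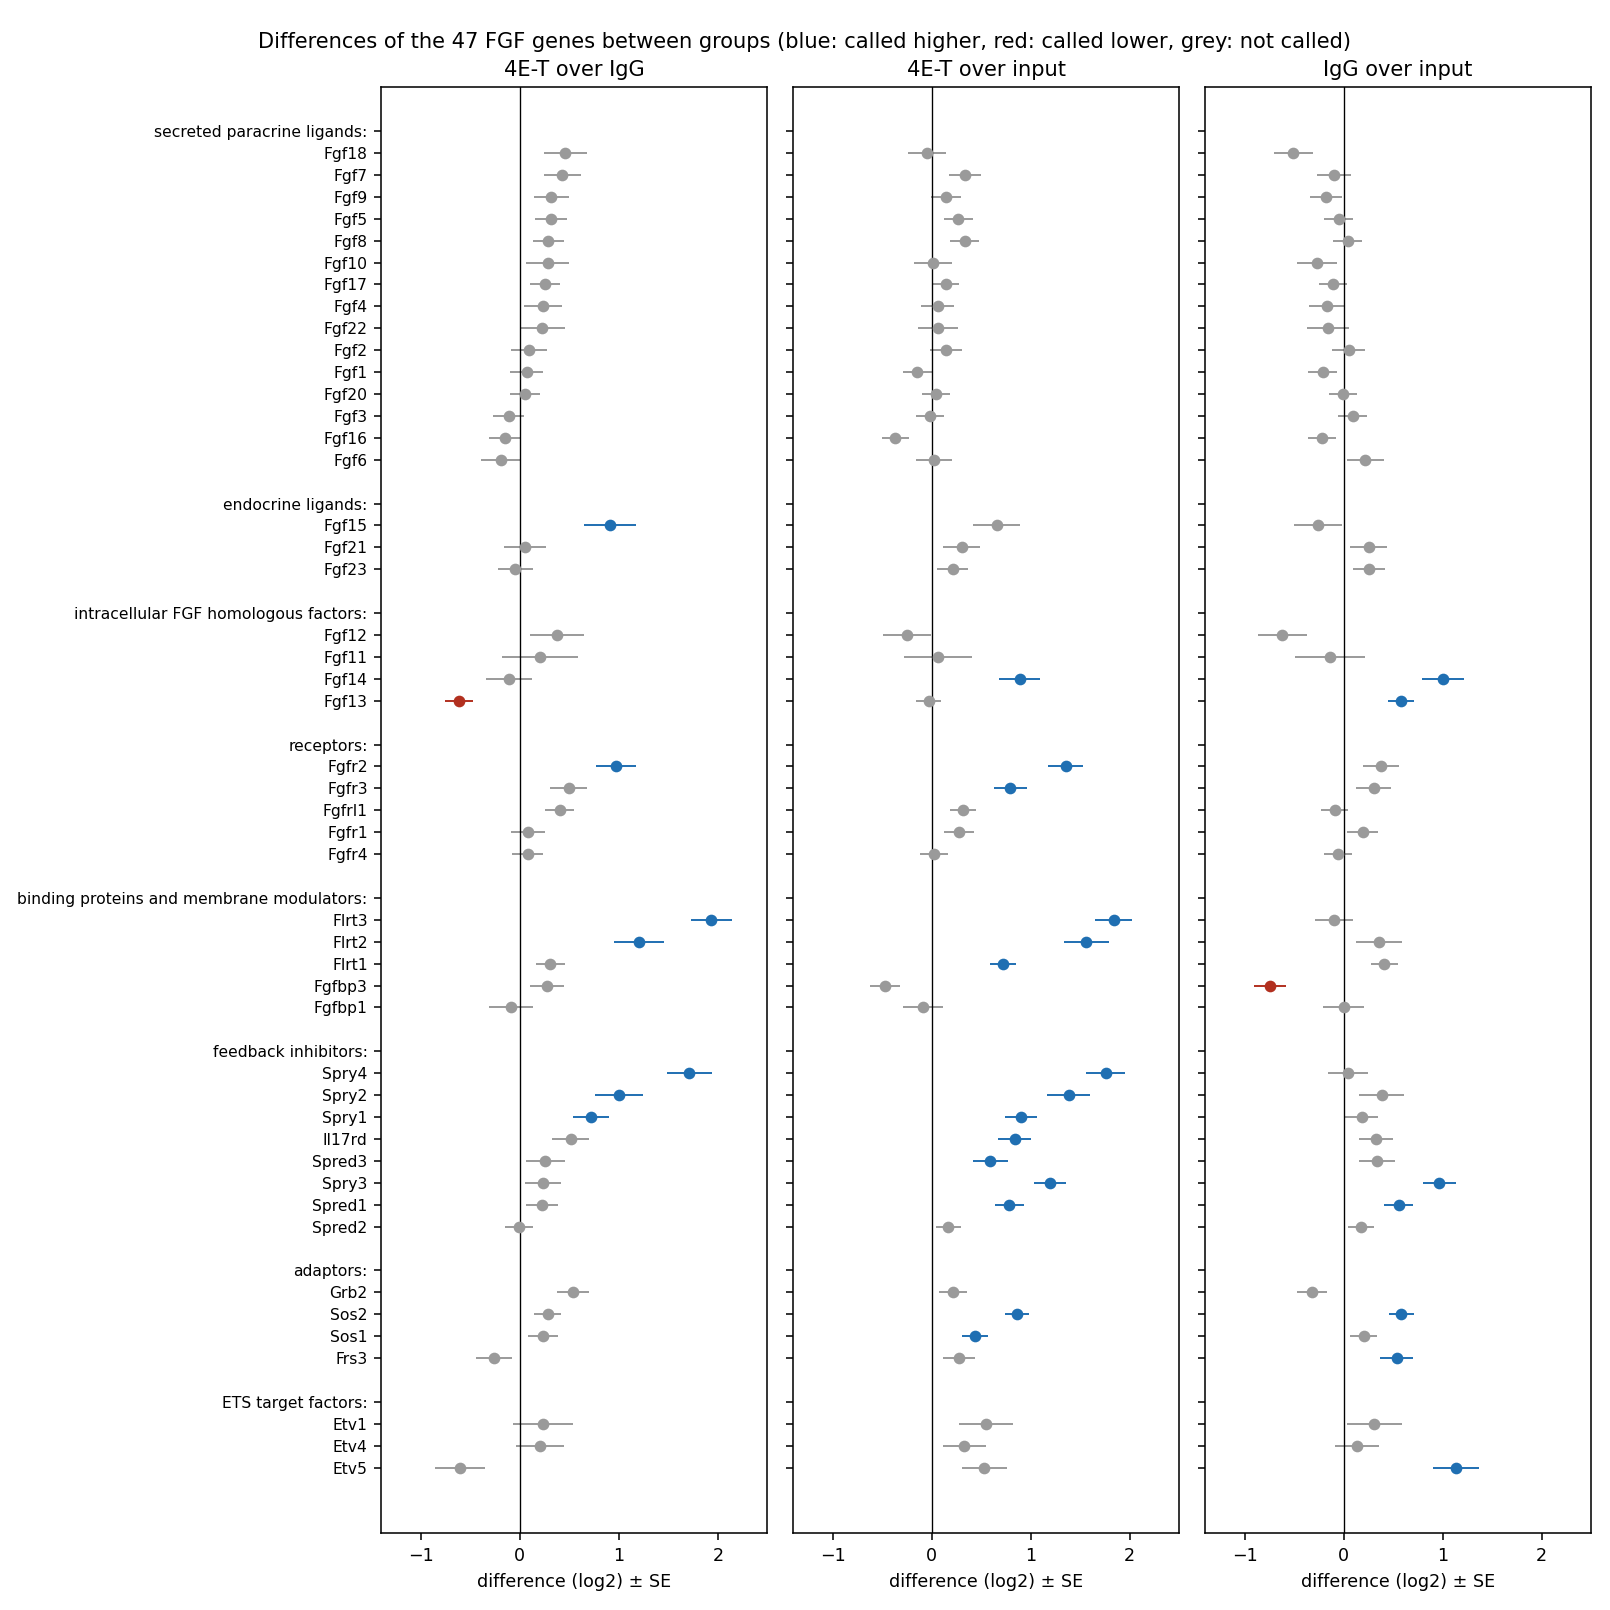
Log2 differences (points) with standard errors (bars) for the 47 FGF genes, grouped by role and ordered within a role by the difference between 4E-T and IgG. Blue marks genes called higher, red genes called lower and grey genes not called, and the largest difference in the first panel is that of Flrt3 at 1.93.

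Among the 8 arrays outside the lower set, 4E-T 2 and 3 lay above all IgG arrays for 21 of the 47 genes (44.7%) and below all of them for 1 (2.13%), where 23.0% and 15.1% of all genes did so. These 21 included 6 of the 8 feedback inhibitors, 3 of the 5 receptors, all 3 FLRT genes and 3 of the 4 adaptors. Differences of the 10 measured cortical precursor markers between 4E-T and IgG ran from -0.16 to 1.85, with a median of 0.68. Of these markers 6 were called higher in 4E-T, among them Hes5 at 1.85 ± 0.17 and Sox2 at 1.06 ± 0.17, and none lower. With group alone 0 were called, 5 in the 8 arrays, and 3 when 4E-T 2 was left out. The mean log2 value over that list was 8.92 to 8.99 on 4E-T 2 and 3, 8.28 to 8.35 on IgG and 8.40 to 8.56 on input 2, 3 and 4. Of the 6 markers of newborn neurons, Neurod1 was called higher and Dcx lower, and single markers of endothelium (Kdr), mesenchyme (Foxc1) and ventral forebrain (Gsx2) were called higher. With group alone only Kdr and Dcx of these 5 were called, and Gsx2 was not called in the 8 arrays either. The part of these cell types in the FGF differences was not tested.

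Against input, which asks how the precipitate differed from the total RNA of the tissue, 15 of the 47 FGF genes (31.9%) were called higher in the 4E-T precipitate and none lower. Limma called 10.4% of all genes higher and 8.86% lower. The median difference was 0.28 over the FGF genes and 0.04 over all genes. Called higher were 7 of 8 feedback inhibitors, all 3 FLRT genes, 2 of 5 receptors, 2 of 4 adaptors and 1 of 4 intracellular factors. None of the 18 secreted ligands was called. With group alone 7 were called (Flrt2, Flrt3, Fgfr2, Sos2, Spry2, Spry3 and Spry4), where 6.14% of all genes were called, and in the 8 arrays 14 were, where 16.1% of all genes were. With group alone 41.7% of all calls were on the higher side, against 54.0% with the set term. Among the 8 arrays 27 FGF genes lay wholly above input and 3 wholly below, where 25.5% and 20.2% of all genes did so.

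The differences from input were 1.84 ± 0.18 for Flrt3, 1.56 ± 0.23 for Flrt2 and 0.72 ± 0.13 for Flrt1 (limma adjusted p = 9.38e-05, 0.000561 and 0.00254). The same difference was 1.76 ± 0.20 for Spry4, whose input level was not above the dim reference, 1.38 ± 0.22 for Spry2 and 0.90 ± 0.16 for Spry1 (0.000153, 0.000940 and 0.00235). Spry3 read 6.69 and 6.92 on 4E-T 2 and 3 and 5.23, 5.57 and 5.84 on input 2, 3 and 4, with 6.21 on 4E-T 1 and 5.16 on input 1, a difference of 1.20 ± 0.16 (0.000380). Unlike in Spry4, the IgG arrays were high too, at 6.61, 6.38 and 6.62. Il17rd, Spred1 and Spred3 were higher by 0.84 ± 0.17, 0.78 ± 0.14 and 0.59 ± 0.18 (0.00393, 0.00237 and 0.0351), and Spred2 was at 0.17 ± 0.13.

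Of the receptors, Fgfr2 was higher than in input by 1.35 ± 0.18 and Fgfr3 by 0.79 ± 0.17 (limma adjusted p = 0.000336 and 0.00591), while Fgfr1 was at 0.28 ± 0.15 (0.276). Sos1 and Sos2 encode the exchange factors that load Ras with GTP. Sos2 was higher by 0.86 ± 0.12 and Sos1 by 0.44 ± 0.13 (0.000543 and 0.0368). Fgf14, the intracellular factor with the strongest signal in this direction, was higher by 0.89 ± 0.21 (0.00955). In all 15 genes 4E-T 1 exceeded input 1, and all 4E-T values outside the lower set exceeded those of input 2, 3 and 4. The calls of Sos1 (0.103 to 0.129) and Spred3 (0.0549 to 0.193) were lost in some fits without 1 array. Each was lost without input 1, 4E-T 1, 4E-T 2 or 4E-T 3, Sos1 also without input 3 and Spred3 also without input 2 or input 4. Fgf14 was lost without 4E-T 3 (0.0673), Fgfr3 after quantile normalization (0.0891), and Spred3 with the replicate block (0.0602). Sos1 and Spred3 were also lost after quantile normalization (0.0939 and 0.101) and with each array centred on its median (0.145 and 0.132). Fgfbp3 was at -0.47 ± 0.15 (limma adjusted p = 0.0513) and was called lower with the block, after quantile normalization, with a trended robust prior, with dim genes left out, and with median centring and the set term. Etv5 was at 0.53 ± 0.22 (0.137) and was called in the 8 arrays, at 0.89 (0.0121). Of the cortical precursor markers 4 of 10 were called higher than in input and 1 lower, and their part in these differences was not tested.

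**Figure D3:**
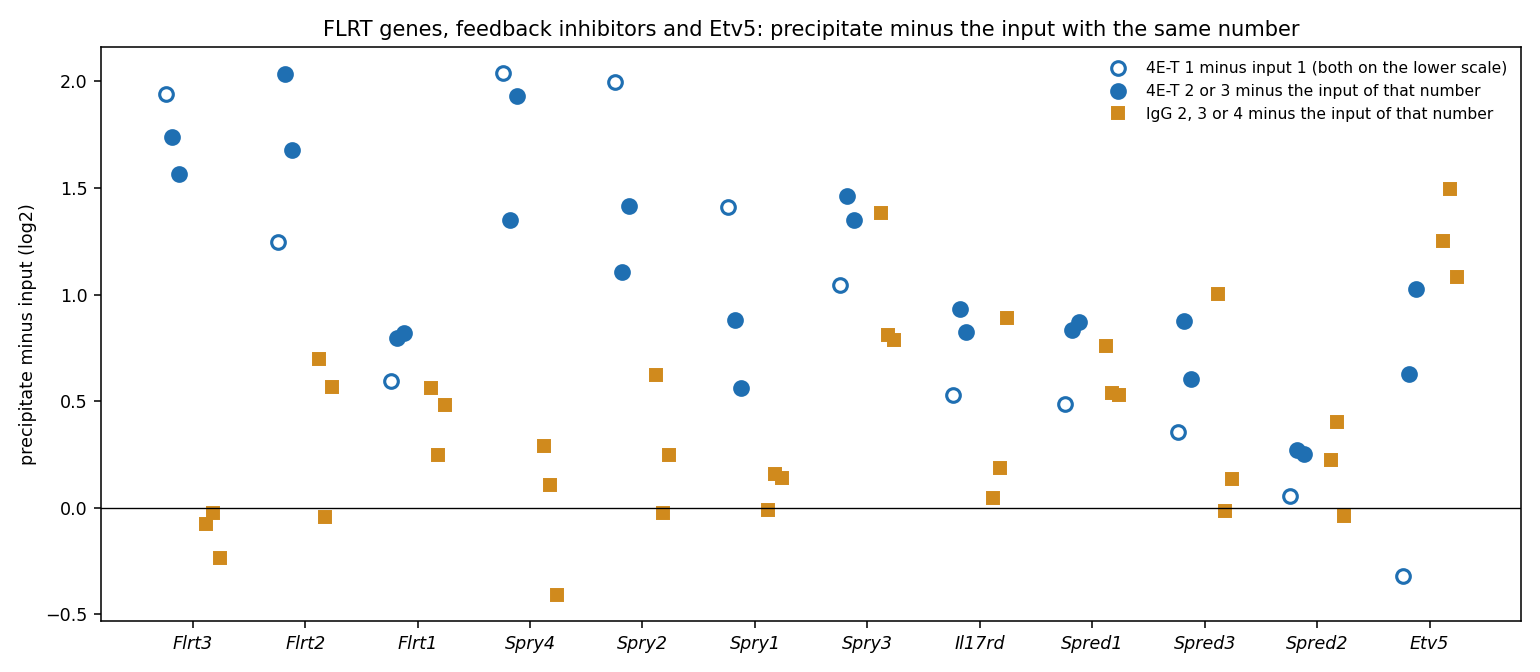
Precipitate minus the input of the same replicate number (log2) for the 3 FLRT genes, the 8 feedback inhibitors and Etv5. Blue circles are 4E-T (open for 4E-T 1 minus input 1, both on the lower scale) and orange squares are IgG. For Flrt3 the 4E-T differences lie from 1.56 to 1.94 and the IgG differences from -0.24 to -0.02.

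In the control precipitate against input, 7 of 47 FGF genes were called higher (14.9%) and 1 lower (2.13%), where limma called 6.14% of all genes higher and 10.5% lower. In both directions together 8 FGF genes (17.0%) were called, a share near that of all genes (3688 of 22180). The median difference was 0.09 over the FGF genes and 0.03 over all genes. This comparison shares the input arrays with the one of 4E-T over input, so its values are given side by side with those and not as independent. Etv5 was higher in IgG than in input by 1.14 ± 0.23 (2.20-fold, limma adjusted p = 0.00544). The dimmer Etv5 probe set gave 0.17 ± 0.30 for IgG over input, and the mean of both was not called (0.0931). Spry3 was at 0.97 ± 0.17 (0.00193), Spred1 at 0.56 ± 0.15 (0.0225) and Sos2 at 0.58 ± 0.13 (0.00838), and these 3 were also called higher in 4E-T than in input.

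Among the intracellular factors, Fgf14 read 6.77, 6.99 and 7.05 on IgG 2, 3 and 4, 6.63 and 7.29 on 4E-T 2 and 3, and 5.60, 5.81 and 6.12 on input 2, 3 and 4. Both precipitates lay above input, IgG by 1.00 ± 0.21 (limma adjusted p = 0.00715). Fgf13 was higher in IgG by 0.58 ± 0.13 (0.00913) and at -0.03 ± 0.13 in 4E-T. Frs3 was higher in IgG by 0.54 ± 0.17 (0.0474), and Fgfbp3 was the gene called lower, at -0.74 ± 0.16 (0.00696). In contrast Flrt3 and Spry4 were at -0.10 ± 0.19 and 0.04 ± 0.20 in IgG over input and were not called (0.805 and 0.925). Among cell type markers 3 of 5 endothelial ones were called lower in IgG than in input (0 with group alone, 2 in the 8 arrays and 1 without input 2), with a mean log2 value of 4.55 to 4.89 on IgG and 5.12 to 5.28 on input 2, 3 and 4. Of the cortical precursor markers 1 of 10 was called higher and 2 lower, and of the neuronal ones 2 of 6 higher and 2 lower (0 and 1, and 1 and 1, with group alone). Their part in the FGF differences was not tested.

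With group alone Etv5, Fgf14 and Spry3 were the 3 genes called in IgG over input, where 5.44% of all genes were called, and in the 8 arrays 8 were, where 15.6% of all genes were. Among these arrays 9 FGF genes lay wholly above input and 3 wholly below, where 14.3% and 16.3% of all genes did so. The higher side held 26.7% of all calls with group alone and 48.3% after quantile normalization, against 36.9% with the set term. Frs3 was called in 3 of the 10 fits without 1 array, those without input 1, 4E-T 1 or IgG 3, and had adjusted p of 0.0589 to 0.151 in the others. Spred1 was lost without input 2, 3 or 4 or IgG 2 or 3 (0.0556 to 0.0725). Frs3 was also lost with each array centred on its median (0.0664) and with a trended robust prior (0.0511), and Sos2 with that centring (0.0786).

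The rest of the pathway was described from lists of genes that are not members of the rule. In 4E-T over IgG, limma called 7.57% of all genes higher and 2.92% lower. Among 20 measured ERK phosphatases and response genes, 8 (40%) were called higher in 4E-T than in IgG and 0 lower. They were led by Ccnd1, which encodes cyclin D1, at 1.52 ± 0.39, Phlda1 at 1.31 ± 0.18, the AP-1 gene Jun at 0.95 ± 0.18 and the phosphatase gene Dusp4 at 0.90 ± 0.23 (limma adjusted p = 0.0287, 0.00106, 0.00749 and 0.0285). They were followed by Egr1, Myc, Ier2 and Dusp7, while Dusp6, the ERK phosphatase most often used as an FGF readout, was at -0.49 ± 0.26 and not called. Dusp6 was called higher in IgG than in input, by 1.08 ± 0.24 (limma adjusted p = 0.00926). The list median was 0.44.

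Among 25 measured genes of heparan sulfate synthesis, its core proteins and the Klotho co-receptors, 8 (32%) were called higher and 0 lower, with a median of 0.38. Heparan sulfate chains hold FGF on its receptor. Ndst2, a sulfotransferase gene, was at 1.15 ± 0.23, Ext1, which encodes the polymerase that builds the chain, at 1.12 ± 0.13, and the core protein genes Sdc1 and Sdc2 at 0.99 ± 0.23 and 0.97 ± 0.23 (limma adjusted p = 0.00928, 0.000480, 0.0173 and 0.0180). Hs6st1, Gpc1, Extl3 and Glce were the others called, and Hs6st3 was lowest at -0.35 ± 0.19.

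Of 18 adaptors and members of the PI3-kinase and phospholipase branch, 4 (22.2%) were called higher and 0 lower, with a median of 0.23. They were Gab2 at 0.94 ± 0.23, Ptpn11, which encodes the phosphatase Shp2, at 0.83 ± 0.19, Nck1 at 0.69 ± 0.17 and Crkl at 0.67 ± 0.16. Of the 13 measured genes of the Ras and MAP kinase core, 0 were called higher and 2 (15.4%) lower, with a median of 0.04. Those were Braf at -0.59 ± 0.15 and Nf1, the gene of neurofibromin, at -0.54 ± 0.16 (limma adjusted p = 0.0312 and 0.0494). Both were called higher in IgG than in input, Braf by 0.80 ± 0.14 and Nf1 by 0.95 ± 0.14 (limma adjusted p = 0.00221 and 0.000885). In 4E-T over input Braf and Nf1 lay at 0.22 ± 0.14 and 0.42 ± 0.14 and were not called. Map2k1 was highest of the core genes in 4E-T over IgG, at 0.52 ± 0.26.

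With group alone 1.35% of all genes were called in 4E-T over IgG. Of the lists, 0 ERK response genes, 1 heparan sulfate gene, 0 adaptors and 0 core genes were then called higher and none lower. In the 8 arrays, where 8.62% of all genes were called, the higher calls were 5, 7, 3 and 0, with 0 lower. Without 4E-T 2 or 4E-T 3 the ERK response calls fell to as few as 2, the heparan sulfate calls to 1 and the adaptor calls to 0. No fit without 1 array called more than 1 of the 13 core genes lower, and the number called higher ranged from 0 to 2. Against input, 8 of 20 ERK response genes, 11 of 25 heparan sulfate genes, 10 of 18 adaptors and 2 of 13 core genes were called higher in 4E-T. The lower calls were 0, 1, 0 and 1, where limma called 10.4% of all genes higher and 8.86% lower. With group alone 2, 2, 2 and 0 list genes were called higher and 0 lower in each, where 6.14% of all genes were called. Without 1 array the higher calls fell to as few as 5, 7, 3 and 2. The ERK response minimum was that without input 1 or 4E-T 1, and the heparan sulfate and adaptor minima those without 4E-T 2. In IgG over input, 2 ERK response genes, 2 heparan sulfate genes, 4 adaptors and 4 core genes were called higher. The lower calls were 0, 0, 0 and 1, where limma called 6.14% of all genes higher and 10.5% lower. With group alone 1, 1, 1 and 2 were higher in IgG and 0 lower in each list.

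**Figure D4:**
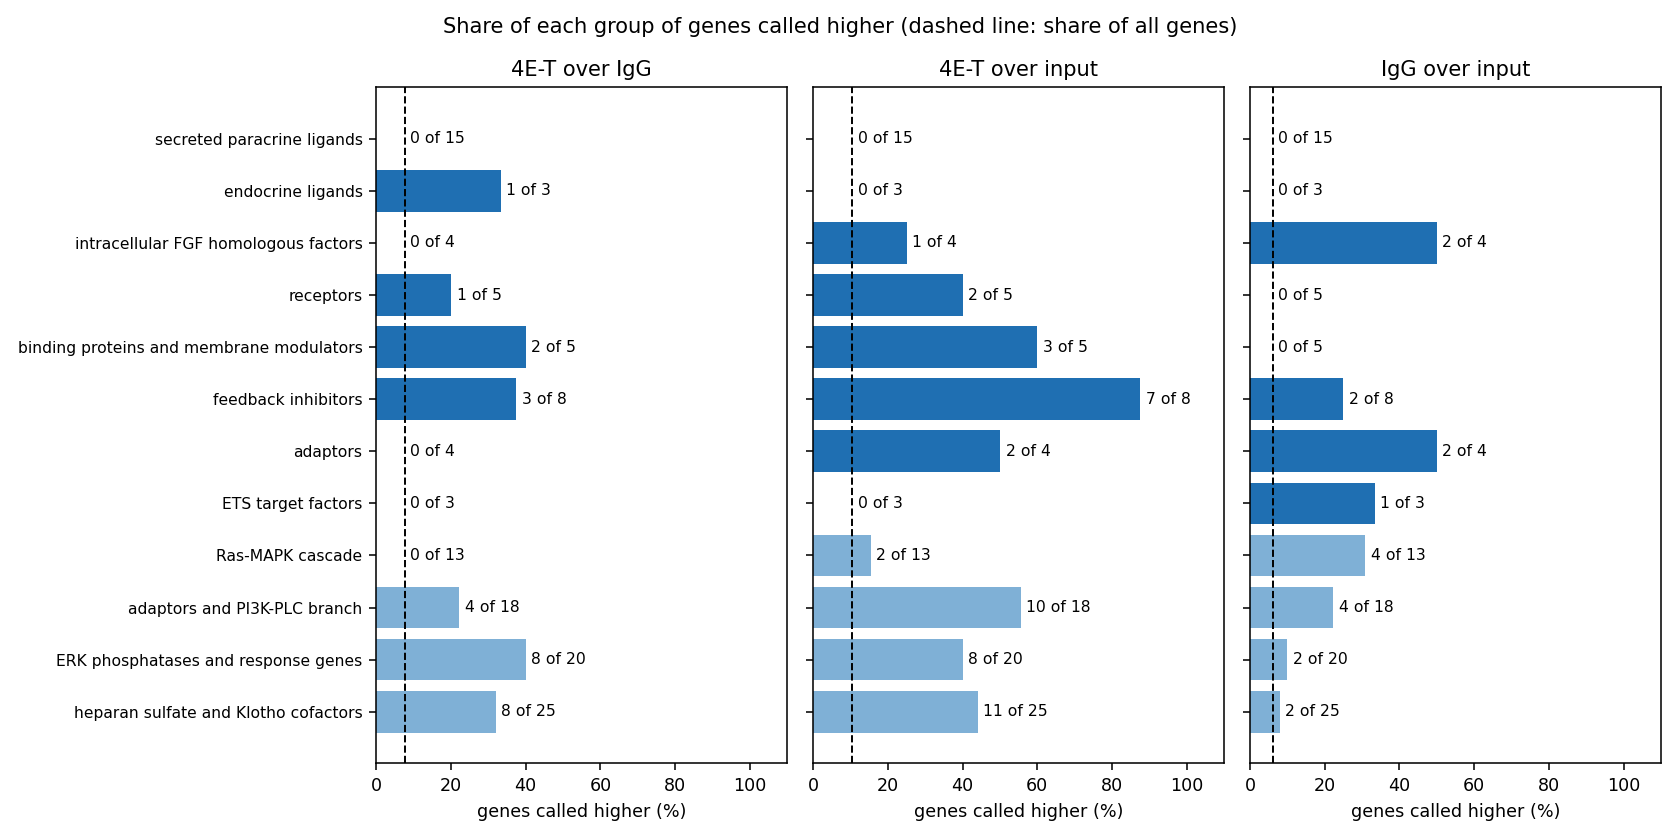
Percentage of genes called higher in each comparison, by role of the FGF genes (dark bars) and for 4 lists of other pathway genes (light bars), with the number called of the number measured. The dashed line is the percentage of all 22180 genes called higher (7.57%, 10.4% and 6.14%), and feedback inhibitors reach 7 of 8 in 4E-T over input.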

How the data were processed

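RNA of 3 4E-T precipitates, 3 IgG precipitates and 4 inputs was hybridised to 1 array each. The deposited values are log2 expression, which the authors computed by RMA; the submitters' processing notes name Affymetrix Expression Console; versions and genome build are not given in the sources used here. Values are relative within an array, so total RNA recovered was not compared. Of 41345 probe sets, 23521 had 1 gene symbol, 1814 several and 16010 none; the probe set with the highest mean stood for each of 22180 genes.

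Limma 3.58.1 in R 4.3.3 fitted group and lower set to all genes, with Benjamini-Hochberg adjustment. The members and lists were chosen with earlier results of these data known, as was the set term. Named were genes called in any comparison, FGF genes known in embryonic cortex, and the extremes of each role; for other lists, called genes and extremes. The fit was run on simulated data that shifted each gene equally on both arrays of the lower set. Such data could not test whether the shift is equal. Over 10 arrays, deviations from the group mean correlated at 0.62, 0.24 and 0.28 between same-numbered 4E-T and input arrays. With inputs 2 to 4 of another number, 4E-T 2 and 3 correlated at 0.19 to 0.27. The 0.24 and 0.28 were thus close to values for different numbers. Outside the lower set same numbers gave 0.04 and 0.01, and other numbers -0.04 to 0.03. For IgG and input the same-numbered values were -0.02, 0.08 and 0.32, and 0.14, 0.09 and 0.25 outside the set. IgG arrays and inputs 2 to 4 of another number gave -0.23 to 0.07, and -0.20 to 0.08 outside the set. The labels state no shared litter.

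Alternatives were group alone, a replicate block, the 8 arrays, median centring, quantile normalization, a trended robust prior, a filter on dim genes, the mean over probe sets and leaving out each array. Median centring with the set term and single probe set fits were added after seeing the data.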

Additional observations from a re-analysis of the deposited data

Results flagged for a closer look

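In the 4 input arrays, 5 of the 47 FGF genes had 1 array far from the other 3 by Dixon's test, which by chance marks about 1 gene in 20. Input 1 was the low array for 4 of them. The values tested were not adjusted for the lower set, and the median of input 1 over all probe sets was 3.54, against 4.39 to 4.43 on the other inputs. That rate therefore does not apply to these 4 flags, which cannot be told apart from the lower scale of the whole array. The FGF ligand Fgf1 read 3.36 on it and 4.46 to 4.68 on the others. Fgf23, an endocrine ligand, read 2.19 against 3.65 to 3.86. Spry1 read 4.44 against 5.45 to 5.63, and Spry4 3.30 against 4.29 to 4.37. Fgf6 was the exception, with input 4 high at 3.64 and the others at 2.96 to 3.04.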

How the results depend on the processing

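Group alone changed most: it called 299 genes in 4E-T over IgG, 1361 in 4E-T over input and 1206 in IgG over input, and 1, 7 and 3 FGF genes. Median centring with group alone called 1510 and 2662 genes in the first 2 comparisons. In 4E-T over IgG, 5 of the 47 FGF genes were called in the 8 arrays and 4 after quantile normalization. Of all 22180 genes, 1911 and 1732 were called in these fits. Leaving out 1 array gave 930 to 2268, 2703 to 4679 and 2612 to 3471 called genes, and 3 to 8, 12 to 16 and 6 to 9 FGF genes. The replicate block called 2454, 4510 and 4120 genes and 10, 15 and 9 FGF genes; since the labels state no shared litter, these are fits by number only.

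In 4E-T over IgG the sign turned for Fgf2 with group alone (-0.12), without 4E-T 2 (-0.013) and without IgG 2; fits without 1 array ranged from -0.042 to 0.22. It turned for Fgfr1 with group alone (-0.14), the block (-4.6e-05), quantile normalization (-0.19) and without IgG 4; fits without 1 array ranged from -0.022 to 0.17. The causes were not tested. Array number limits precision throughout, and leaving out input 1 or 4E-T 1 gives the same fit as the 8 arrays.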

Other observations

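The transcription factors that pattern the cortex downstream of rostral FGF were not part of the pathway described above. Of the 6 measured, Emx2, which promotes caudal identity, was higher in 4E-T than in IgG by 0.90 ± 0.18 and Nr2f2 (COUP-TFII) by 0.82 ± 0.14 on the log2 scale, and both were called by limma. Against input, 4 were called higher: Sp8 at 0.98 ± 0.20, Dmrta1 at 0.92 ± 0.28, Nr2f2 and Emx2. Limma called 7.57% of all genes higher over IgG and 10.4% over input. In IgG over input 0 were called. With group alone 0 were called over IgG and 2 over input. Leaving out 1 array gave 1 to 3 calls over IgG, with 1 when 4E-T 2 was left out.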
